A study of Mus musculus with 36 samples.

Results

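The peaks of histone H3 acetylated at lysine 27 (H3K27ac) in the dorsal hippocampus of ethanol-treated mice were compared between mice with an Acss2 knockdown and mice with a control vector. The comparison rests on 205427 peaks, 119317 in the knockdown list and 86110 in the control list, out of 546933 peaks in the 8 lists of the series. Knockdown peaks with no overlapping base in the control list were called gained. Control peaks with no overlapping base in the knockdown list were called lost. All other peaks were called kept. Only the 19 autosomes, X and Y were used.

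Both groups were male mice, 8 weeks old per the labels, and both were injected intraperitoneally with ethanol in saline (20% solution, 2 g per kg). The knockdown group carried the adeno-associated virus AAV2/9 U6.shACSS2.CMV.EGFP in the dorsal hippocampus, and the other group a control vector. The U6 promoter that drives the hairpin is not restricted to a cell type. About 20 mg of tissue from each mouse was cross-linked and sheared to about 250 bp, and 75 bp reads were taken from 1 end. Each group holds 3 replicates for H3K27ac and 3 for input, but the deposited list is 1 per group, so no value per replicate and no test of the difference exists. Read depth is unknown for both lists, and deeper sequencing alone can lengthen a list and widen its peaks. In bulk tissue, fewer cells of a type and less mark per cell cannot be told apart.

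H3K27ac is placed by the acetyltransferases CBP and p300 on nucleosomes at active promoters and enhancers. Acetyl-CoA is the donor of the acetyl group. Ethanol is oxidised to acetaldehyde and then to acetate, largely in the liver, and ACSS2 in the nucleus can turn acetate into acetyl-CoA. The comparison asks how the ethanol-exposed acetylation landscape differs when ACSS2 is reduced.

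To show what sites of each kind look like, 6 promoters are printed whose gene start lies inside a gained or lost peak. They were chosen after their values were seen, among the highest-scoring of such promoters. Each runs from 250 bases before to 50 bases after the gene start as RefSeq lists it on GRCm38.p6, 5′ to 3′ on the gene's strand. Capitals mark matches to 8 motifs searched on both strands. These are AP-1 (TGANTCA), the cAMP response element (TGACGTCA), the GC box (GGGCGG), the CCAAT box (CCAAT), NRF1 (GCGCANGC), an E-box (CAGCTG), an interferon response element (GAAANNGAA) and an ETS site (CCGGAAG). No motif's letters contain another's, but neighbouring matches can share bases. Rasef, Mtnr1a and Eif2s3y had a gained start peak, and Stk32b, Nipal1 and Npy a lost one. In that order, their scores lay at percentiles 84.4, 83.3 and 84.3 of the knockdown list, and 66.6, 63.2 and 46.6 of the control list. The Npy peak thus lay below the middle of its list.
Rasef, chr4:73790553-73790852, minus strand: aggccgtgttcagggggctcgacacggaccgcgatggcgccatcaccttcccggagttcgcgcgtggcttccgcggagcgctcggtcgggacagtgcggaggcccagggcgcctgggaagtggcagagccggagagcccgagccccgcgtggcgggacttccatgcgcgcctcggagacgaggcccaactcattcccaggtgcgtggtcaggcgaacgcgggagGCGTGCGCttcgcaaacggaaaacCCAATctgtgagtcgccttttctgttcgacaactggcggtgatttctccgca
Mtnr1a, chr8:45068857-45069156, plus strand: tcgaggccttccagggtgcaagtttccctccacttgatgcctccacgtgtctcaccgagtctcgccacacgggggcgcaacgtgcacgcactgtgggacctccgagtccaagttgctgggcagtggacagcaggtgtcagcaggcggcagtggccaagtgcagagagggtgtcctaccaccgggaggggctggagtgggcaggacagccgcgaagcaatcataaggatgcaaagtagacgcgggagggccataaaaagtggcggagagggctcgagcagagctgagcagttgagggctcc
Eif2s3y, chrY:1010345-1010644, plus strand: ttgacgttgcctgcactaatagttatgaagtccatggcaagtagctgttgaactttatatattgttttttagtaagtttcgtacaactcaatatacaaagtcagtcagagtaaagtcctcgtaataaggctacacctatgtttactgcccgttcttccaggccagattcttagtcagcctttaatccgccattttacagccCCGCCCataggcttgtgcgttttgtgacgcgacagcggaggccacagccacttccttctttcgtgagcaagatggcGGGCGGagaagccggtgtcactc
Stk32b, chr5:37717104-37717403, minus strand: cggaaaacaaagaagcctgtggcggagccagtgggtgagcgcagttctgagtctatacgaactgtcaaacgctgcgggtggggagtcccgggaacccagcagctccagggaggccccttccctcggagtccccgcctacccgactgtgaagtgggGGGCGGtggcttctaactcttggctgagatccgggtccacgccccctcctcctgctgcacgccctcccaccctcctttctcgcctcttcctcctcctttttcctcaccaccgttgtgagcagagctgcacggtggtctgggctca
Nipal1, chr5:72647546-72647845, plus strand: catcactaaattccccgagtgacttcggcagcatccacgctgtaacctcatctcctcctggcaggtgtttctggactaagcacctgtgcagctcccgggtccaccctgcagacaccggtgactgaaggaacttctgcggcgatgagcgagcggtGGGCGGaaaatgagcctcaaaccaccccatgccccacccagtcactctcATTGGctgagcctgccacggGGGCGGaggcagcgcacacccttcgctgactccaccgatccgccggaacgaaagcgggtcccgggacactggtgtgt
Npy, chr6:49822460-49822759, plus strand: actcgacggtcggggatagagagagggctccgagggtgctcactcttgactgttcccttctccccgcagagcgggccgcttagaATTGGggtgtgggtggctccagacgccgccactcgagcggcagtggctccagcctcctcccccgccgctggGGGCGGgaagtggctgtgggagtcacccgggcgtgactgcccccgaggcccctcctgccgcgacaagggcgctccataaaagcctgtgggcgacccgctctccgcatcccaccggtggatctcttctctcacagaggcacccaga
The 3 gained promoters held 38 (Rasef), 17 (Mtnr1a) and 14 (Eif2s3y) CpG dinucleotides, and the 3 lost ones 17 (Stk32b), 20 (Nipal1) and 24 (Npy). Rasef had an NRF1 and a CCAAT match, Eif2s3y had 2 GC boxes, and Mtnr1a had no match to any of the 8 motifs in this window. Nipal1 held a CCAAT box between 2 GC boxes, Npy held a CCAAT box and a GC box, and Stk32b held 1 GC box. A match describes the letters of the window and does not show that a factor binds there.

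Acss2 itself kept its end peaks. It encodes the acetyl-CoA synthetase that the hairpin targets, on chromosome 2 from 155518043 to 155562743. Peaks covered 1634 bases within 2.0 kb of its ends in the knockdown list and 1619 in the control list, against 1614 and 1389 in untreated knockdown and control mice. A short hairpin RNA acts on the transcript and not on chromatin at the gene, so this locus says nothing of how far the knockdown went.

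Of the 119317 knockdown peaks, 57730 were gained, which is 48.4% of that list (Wilson 95% interval 48.1% to 48.7%). Of the 86110 control peaks, 16042 were lost, which is 18.6% (18.4% to 18.9%). All intervals of this kind cover counting error only. Gained peaks covered 14.3 Mb, or 24.9% of the 57.4 Mb of the knockdown list, and lost peaks covered 3.13 Mb, or 8.20% of the 38.1 Mb of the control list. The excess of gained over lost peaks varied with the length of the lists. With the knockdown list trimmed by score to the 86110 peaks of the control list, 31945 were gained and 22607 lost. The trimmed list still covered 49.8 Mb. The knockdown list was also trimmed by score to the bases that the control list covers. Of its 46753 peaks left, 7468 were gained, and 36916 control peaks were lost. Trimming only the knockdown list lowers the gained and raises the lost count by construction, so no direction is drawn from either setting. The part of list size in the excess was not tested.

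Sites held by both lists were also wider in the knockdown list. Overlapping peaks of both lists were merged into 130797 regions, of which 57025 (43.6%) held peaks of both, 57730 (44.1%) of the knockdown list only and 16042 (12.3%) of the control list only. Among the shared regions, 42765 (75.0%) had more covered bases in the knockdown list, 14100 (24.7%) had more in the control list and 160 had equal numbers. Their median cover was 540 bases in the knockdown list and 396 in the control list, with a median difference of 100 bases. Knockdown peaks spread over 11.5 Mb of shared regions that no control peak reached, and control peaks over 3.47 Mb that no knockdown peak reached.

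Many gained and lost sites lay beside a site of the other list. A control peak lay within 500 bases of 17243 gained peaks and within 100 bases of 3020, and a knockdown peak lay within 500 bases of 8141 lost peaks and within 100 bases of 2258. Just inside the rule, 1797 kept knockdown peaks and 1689 kept control peaks shared at most 50 bases with their counterparts.

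Gained and lost peaks were narrow and low in the ranking of their own lists. The score in the deposited lists, taken to be a −log10 q-value, was used only within a list. Gained peaks had a median width of 209 bp and a median score of 5.27, against 497 bp and 10.1 for the kept peaks of the knockdown list. Lost peaks had a median width of 170 bp and a median score of 5.36, against 328 bp and 7.79 for the kept peaks of the control list. Scores above the list median were held by 19.2% of gained and 14.5% of lost peaks.

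Each list was split by score into 10 classes of equal size. The share without a counterpart was lower in every step up the ranking. In the lowest class of the knockdown list 79.4% of peaks were gained (78.6% to 80.1%), in the fifth 62.1%, in the eighth 21.0% and in the highest 8 of 11931 peaks. In the control list, 39.6% of the lowest class were lost (38.6% to 40.7%), 22.5% of the fifth, 3.17% of the eighth and 1 of 8611 peaks in the highest. Nearly all of the highest-scoring H3K27ac peaks of either list were thus shared, and the gained share was above the lost share in all 10 classes.

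**Figure D1:**
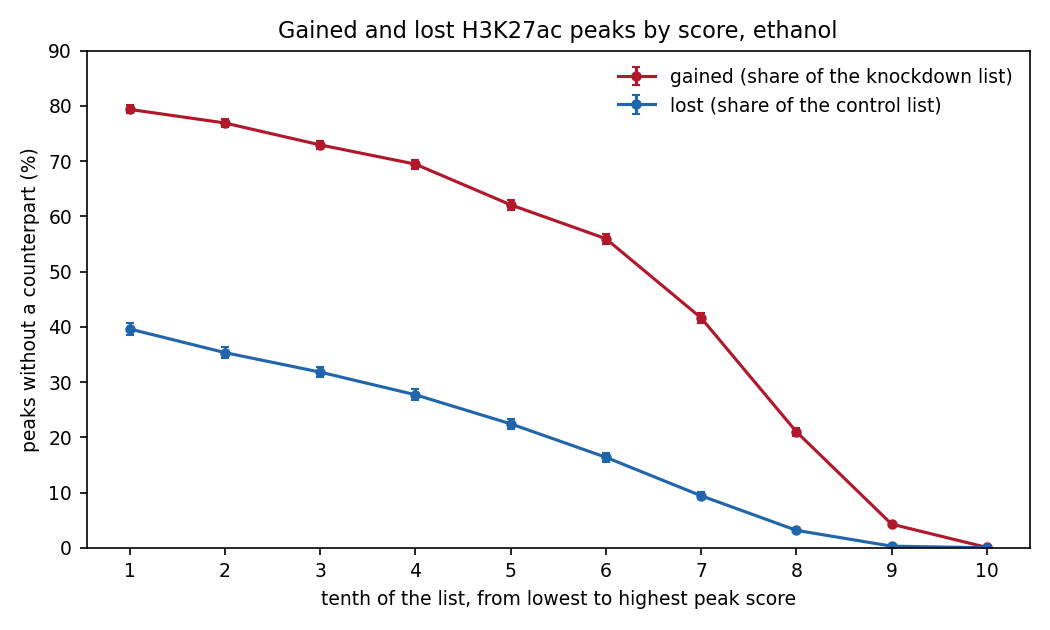
Share of peaks without a counterpart (vertical axis, percent) in 10 classes of equal size by peak score within the own list (horizontal axis, lowest to highest), for gained peaks (red, knockdown list) and lost peaks (blue, control list), with 95% Wilson intervals. The gained share falls from 79.4% to under 1%, and the lost share from 39.6% to under 1%, along the ranking.

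Most gained and lost peaks lay away from gene ends. A peak was placed at a gene end when its midpoint was within 1.0 kb of either end of a protein-coding gene. Of gained peaks 6.53% lay at gene ends, 67.4% inside genes and 26.1% outside, whereas 26.9% of the kept knockdown peaks lay at gene ends, 53.2% inside and 19.9% outside. Lost peaks were placed much like gained ones, with 7.40% at gene ends, 68.3% inside genes and 24.3% outside. Of the 70068 kept control peaks 18902 lay at gene ends.

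The gained share of each autosome lay between 46.4% (chromosome 17) and 52.6% (chromosome 16), and the lost share between 16.8% (chromosome 11) and 20.4% (chromosomes 1 and 9). The X chromosome stood lower in both, with 34.4% gained (31.7% to 37.1%) and 9.91% lost (8.21% to 11.9%). Peaks of the X also lay more often at gene ends, 47.7% in the knockdown list and 54.4% in the control list. The part of that placement in the lower shares was not tested. On the Y, 7 of 24 knockdown peaks were gained and 5 of 22 control peaks lost.

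Away from gene ends, the 3 highest-scoring gained peaks lay in or nearest to Ptprs, Ank2 and Neurod2. The first lay inside Ptprs, a receptor tyrosine phosphatase of axons and synapses, at chr17:56422671-56423482, with a score above 95.3% of its list. The second lay inside Ank2, an ankyrin that anchors membrane proteins to the cytoskeleton, at chr3:127149552-127150066 (93.9%). The third lay outside genes, nearest to Neurod2, a transcription factor of excitatory neurons, at chr11:98313058-98313793 (92.0%). The other 3 were nearest to Pter, Tusc3 and Tbc1d10a. All 6 were also covered in an untreated list, the Ptprs, Neurod2 and Pter sites in both, the Ank2 and Tusc3 sites in that of knockdown mice, and the Tbc1d10a site in that of control mice. These sites were therefore missing from the ethanol control list but present elsewhere.

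The highest-scoring lost peaks away from gene ends were nearest to Nifk, Ldlrad4, Tusc3, Ptpn3, Cbx8 and Stk32c. The Nifk peak, 205 bp wide and 2.49 kb from the gene, scored above 96.8% of the control list and was found in no other H3K27ac list. Those in Ldlrad4, Tusc3 and Ptpn3 were likewise absent from both untreated lists. Among the lists of H3K9ac, acetylation of histone H3 at lysine 9, only that of ethanol-treated knockdown mice held the Nifk site. The Ldlrad4 and Ptpn3 sites were held only by the H3K9ac list of ethanol-treated controls, and the Tusc3 site by none. The peak 12.3 kb from Cbx8, a Polycomb group protein, was in both untreated lists, and that in Stk32c, a kinase, was in the untreated control list. Tusc3, which encodes a subunit of an oligosaccharyltransferase, held both a gained site, at chr8:39132862-39133108, and a lost one, at chr8:39045156-39045507.

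Long genes, several of them neuronal, held the most gained peaks. Counts inside a gene grow with its length, so they describe each gene and are not compared between genes. Kalrn, a guanine nucleotide exchange factor of dendritic spines spanning 604 kb, held 192 knockdown and 84 control peaks, with 130 gained and 8 lost. Peaks covered 75041 bases of Kalrn in the knockdown list and 26642 in the control list, against 55002 and 44998 in untreated knockdown and control mice. The next by number were Rbfox3, the NeuN splicing factor, with 124 gained and 14 lost, Prkce, a protein kinase C, with 122 and 12, and Tcf4, a basic helix-loop-helix factor, with 113 and 19. Celf2 had 111 and 9, Msra 111 and 14, Nav2 107 and 23, and St6galnac3 101 and 12.

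The genes with the most lost peaks mostly held still more gained ones. Dscaml1, a cell adhesion molecule, had 35 lost and 78 gained, Agap1 33 and 54, Gse1 33 and 62, Sik3, a salt-inducible kinase, 32 and 40, Ctif 30 and 34, Arid1b, a chromatin remodelling subunit, 29 and 79, and Slc24a2 29 and 52. Rnf220, a ubiquitin ligase, was the exception, with 29 lost and 15 gained. It held 37 knockdown and 52 control peaks, covering 13434 and 16201 bases, against 10705 and 10996 in untreated knockdown and control mice. The ethanol control list thus covered more of Rnf220 than any other H3K27ac list.

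Of 3695 genes with at least 3 gained peaks inside, 1177 held no lost peak. Of 1295 genes with at least 3 lost peaks inside, 44 held no gained peak. Gained peaks outnumbered lost ones in all, 57730 to 16042, and the part of this in these counts was not tested. The genes with the most peaks of such 1-way runs were chosen after their values were seen. Gained runs were longest in Sfxn5 (31 gained), Shisa6, an auxiliary protein of AMPA receptors (28), and Nsg2, a neuronal endosome protein (24). Lost runs were longest in Fez1, an axonal transport adaptor (9 lost), Epb41l3, a membrane cytoskeleton protein (8), Cpm, a carboxypeptidase (7), and Ano4 (6). In Fez1, peaks covered 4870 bases in the knockdown list and 6750 in the control list, against 4184 and 4673 in untreated knockdown and control mice. Gltp, which carries glycolipids, was covered over 2651 and 4994 bases, against 3563 and 3232.

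Peaks at gene ends were gained or lost less often than peaks elsewhere. Of the knockdown peaks at gene ends 18.5% were gained, against 54.3% of those inside genes, and of the control peaks 5.91% were lost, against 22.6%. Counted by gene, the shares are lower still, since a gene counts only if no end peak is left in the other list. An end peak, meaning any peak that reaches within 1.0 kb of either gene end, was found for 14030 genes in the knockdown list and 13438 in the control list. Of the 14171 genes with an end peak in either, 733 had one only in the knockdown list (5.17%) and 141 only in the control list (0.995%). For 42 and 9 of these the peak had a counterpart that stopped short of the window, which leaves 691 genes (4.88%) and 132 genes (0.931%) whose end peak itself was gained or lost. Of the 691 genes, 285 (41.2%) had an end peak in neither untreated list, 180 in that of knockdown mice only, 78 in that of control mice only and 148 in both. Of the 132 genes, 67 (50.8%) had one in neither, 32 in that of knockdown mice only, 14 in that of control mice only and 19 in both.

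The highest-scoring gained end peaks lay between Ano9 and Sigirr, at Mesp1, Eif2s3y, Nr2f2, Rasef, Mtnr1a, Cpne4, Tafa1, Unc5a and Apoc1. The site shared by Ano9 and Sigirr, a brake on interleukin receptor and Toll-like receptor signalling, lies at chr7:141099953-141100520. At Ano9, peaks covered 568 bases within 2.0 kb of the ends in the knockdown list and 0 in the control list, against 448 and 628 in untreated knockdown and control mice. Because this window is wider than that for end peaks, cover can exceed 0 without an end peak. At Mesp1, a factor of early mesoderm, they covered 680 and 0 bases, against 394 and 160. Nr2f2, the orphan nuclear receptor COUP-TFII, had 473 and 0, against 392 and 635. Apoc1, an apolipoprotein, had 1331 and 182, against 1026 and 28. Rasef, a Rab-related GTPase, had 584 bases in the knockdown ethanol list and 0 in the other 3 H3K27ac lists. Of these 10 sites, that of Rasef was the only one with no end peak in an untreated H3K27ac list.

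Some of these genes also carried H3K9ac, a mark of active promoters that the rule did not use. At Eif2s3y, a Y-linked translation initiation factor subunit, H3K9ac covered 740 bases in the knockdown and 0 in the control ethanol list, and H3K27ac 598 and 0. At Tafa1, a secreted protein of brain, H3K9ac covered 1798 and 0 bases, and H3K27ac 1611 and 518. Mtnr1a, a melatonin receptor, and Cpne4, a calcium-dependent phospholipid-binding protein, had no H3K9ac in either ethanol list, with H3K27ac over 398 and 360 bases in the knockdown list. The H3K9ac ethanol lists also differ in length, with 42120 knockdown and 31042 control peaks.

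The highest-scoring lost end peaks lay at Sh3tc2, Eps8l1, Nectin1, Utf1, between Dnaaf6b and Nup62cl, and at Aspa, Cd164l2, Ikzf3, Stk32b and Thumpd1. At Sh3tc2, known for its part in peripheral nerve myelin, peaks covered 0 bases in the knockdown list and 1281 in the control list, against 753 and 1135 in untreated knockdown and control mice. Aspa encodes aspartoacylase, which frees acetate from N-acetylaspartate in oligodendrocytes. Its lost site lies at chr11:73304125-73304289, and peaks at its ends covered 0 bases in the knockdown and 587 in the control list, against 164 and 170. Nectin1, a cell adhesion molecule, had 183 and 316, against 0 and 0, and Ikzf3, a lymphoid zinc finger factor, had 0 and 175, against 211 and 199. Stk32b, a kinase, had 0 and 499, against 345 and 297. Sh3tc2, Ikzf3 and Stk32b had an end peak in both untreated lists and Eps8l1 in the untreated control list, and the other 6 sites had none in an untreated list.

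Gene by gene, the knockdown list covered more bases. Of 14747 protein-coding genes with H3K27ac within 2.0 kb of their ends in either list, 12198 had more covered bases in the knockdown list (82.7%) and 2532 had fewer (17.2%). The median difference was 236 bases, between medians of 1524 and 1275. The 24 gene lists below, which were chosen with earlier results of these data known, were read against these figures. Of their 406 genes with an end peak in either list, 19 gained one (4.68%, 3.02% to 7.19%) and 4 lost one (0.985%, 0.384% to 2.51%), close to the 4.88% and 0.931% of all genes. The mean cover was higher in the knockdown list for 23 of the 24 gene lists and lower for 1, the oligodendrocyte lineage markers.

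**Figure D2:**
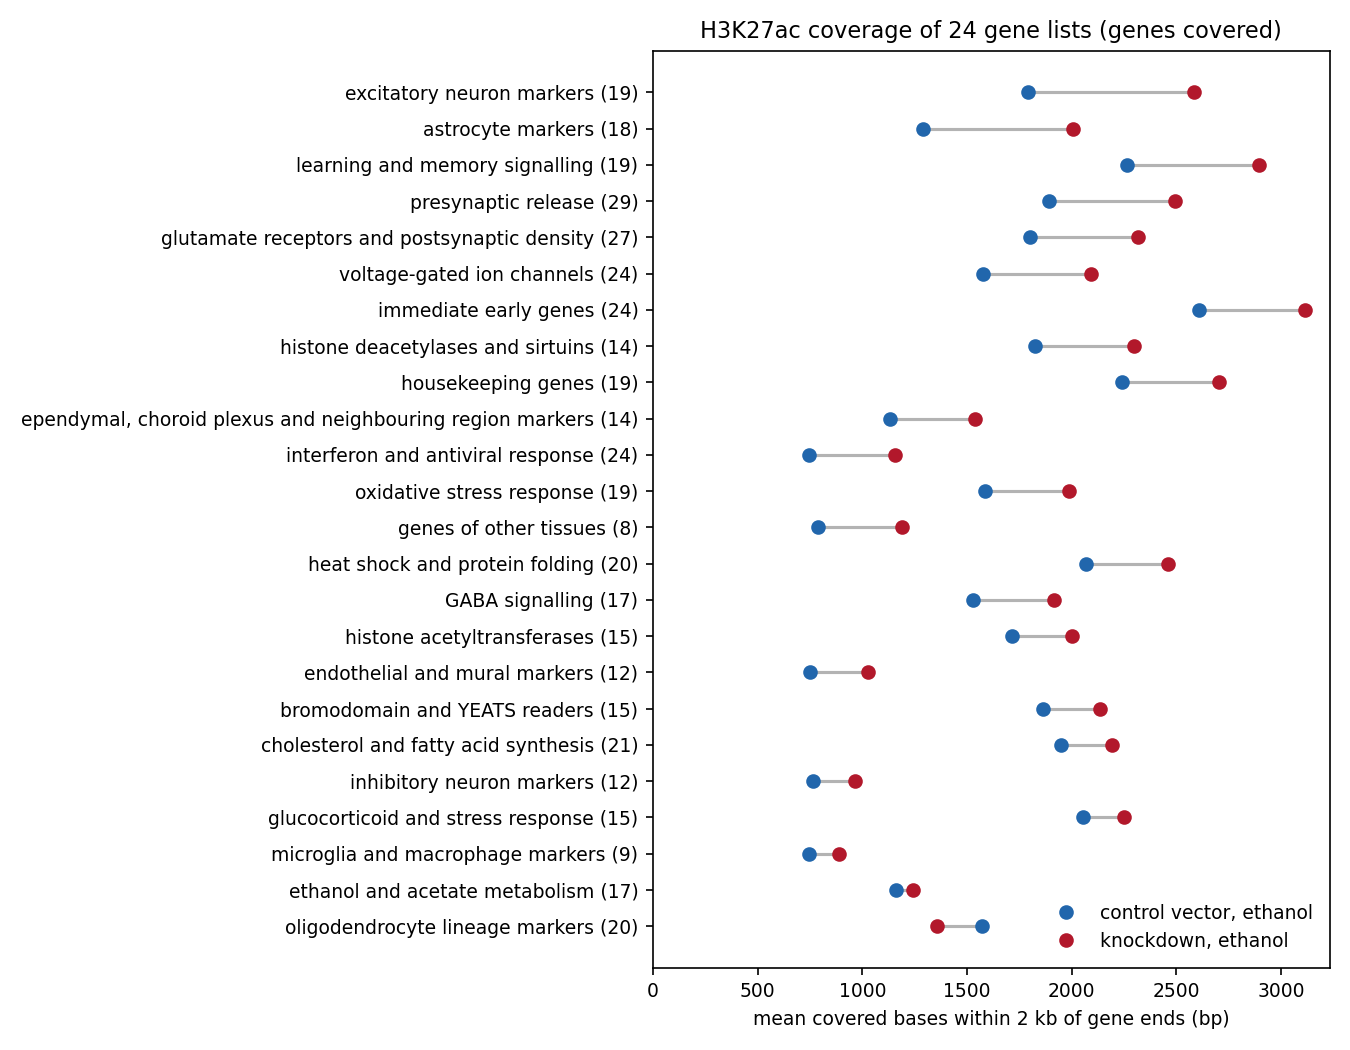
Mean bases covered by H3K27ac within 2 kb of the gene ends (horizontal axis, bp) for 24 gene lists in ethanol-treated mice, control vector in blue and knockdown in red, with the number of covered genes in parentheses. Red lies to the right of blue in every list but the oligodendrocyte lineage markers, at 1355 against 1573 bp.

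Among enzymes of ethanol and acetate metabolism, 12 of 17 covered genes had more bases in the knockdown list and 5 fewer, with a median difference of 175 bases. Of all covered genes 82.7% had more, with a median of 236 bases. With lists of equal covered bases 6 of 14 enzymes were more covered, with a median of -13 bases. In that setting 64.2% of all genes were more covered, with a median of 96 bases. Aldh2, the mitochondrial enzyme that oxidises acetaldehyde, had 1526 bases in the knockdown and 1901 in the control list, against 2560 and 2002 in untreated knockdown and control mice. Cat, the catalase that can oxidise ethanol in brain, had 1491 and 1822, against 1985 and 1385. Slc16a1, a monocarboxylate transporter, had 1955 and 2181, against 2224 and 2113. Both Aldh2 and Cat were thus less covered in the knockdown with ethanol and more covered in it without. Aldh7a1, an aldehyde dehydrogenase, had 2127 and 1407, against 1910 and 1669. Acss3, a mitochondrial acyl-CoA synthetase, Aldh1a1, a retinaldehyde dehydrogenase, and Acacb, an acetyl-CoA carboxylase, each gained an end peak, over 287, 253 and 180 bases. That of Acss3 was also seen in untreated knockdown mice.

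Writers, erasers and readers of acetylation kept all their end peaks, where 93.8% of all genes with an end peak in either list kept theirs. Deacetylases and sirtuins had more bases in the knockdown list in 14 of 14 covered genes, beside 82.7% of all genes, with a median difference of 388.5 bases. Hdac5, a deacetylase that shuttles between nucleus and cytoplasm, had 4149 and 2502 bases, against 3511 and 2376 in untreated knockdown and control mice. Acetyltransferases had more in 11 of 15 (median 173), among them Kat7 with 2150 and 1336, and Hat1 had fewer, 509 and 688. Bromodomain and YEATS readers had more in 12 of 15 (median 305), with Yeats2 at 2463 and 1694 and Brwd3 at 1124 and 1522. With lists of equal covered bases, 9 of 14 deacetylases and sirtuins were more covered, beside 64.2% of all genes. In that setting 8 of 15 acetyltransferases and 8 of 15 readers were more covered.

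Activity-regulated and synaptic genes were mostly more covered, as were 82.7% of all genes. Of the immediate early genes, 23 of 24 had more bases in the knockdown list, with a median difference of 468. Dusp6, a phosphatase of the ERK pathway, had 5195 and 3939 bases, Fosb 4117 and 2915, and Egr4 2966 and 1804, while Gadd45b had 3120 and 3449. Learning and memory signalling genes had more in 17 of 19 (median 522), led by Camk2b with 5034 and 2897 bases. Presynaptic release genes had more in 26 of 29 (median 555), led by Rab3a, a vesicle GTPase, with 5961 and 4081, and Syn3 had fewer, 1338 and 1946.

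Glutamate receptor and postsynaptic genes had more in 21 of 27 (median 350), with Grm2 at 5535 and 2976 bases and Grin1, the shared subunit of NMDA receptors, at 6025 and 3962. Shank2 had fewer, 146 and 442. GABA signalling genes had more in 14 of 17 (median 281), with Gad1, which makes GABA, at 1822 and 866. Voltage-gated channels had more in 23 of 24 (median 395.5), and Scn1a and Cacna1h gained an end peak. Inside genes of these families, or within 1.0 kb of them, the gained share was 64.6% of 931 peaks for glutamate receptors (61.4% to 67.6%), 64.4% of 261 for GABA signalling (58.4% to 69.9%), 64.2% of 667 for channels (60.5% to 67.7%) and 60.3% of 484 for presynaptic genes (55.9% to 64.6%). For immediate early genes it was 27.3% (20.4% to 35.6%), and for learning and memory genes 49.1% of 383 (44.1% to 54.1%). Among all peaks of the knockdown list, 54.3% of those inside genes and 18.5% of those at gene ends were gained. The part of gene length and placement in the shares of these lists was not tested.

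In stress, lipid and interferon genes, the share more covered was close to the 82.7% of all genes. Glucocorticoid and stress genes had more bases in 12 of 15 (median 277). With lists of equal covered bases 6 of 14 had more, beside 64.2% of all genes. End peaks were gained at Tsc22d3, a glucocorticoid-induced leucine zipper, and Sult1a1, while Plin4, a lipid droplet protein, had 4375 and 5387 bases. Heat shock genes had more in 17 of 20 (median 237), led by Hsp90ab1 at 4184 and 2865. Cholesterol and fatty acid synthesis genes had more in 17 of 21 (median 220), while Scd1, a fatty acid desaturase, had 1133 and 1910. Oxidative stress genes had more in 16 of 19 (median 350), with Nqo1 at 1803 and 875, a gained end peak at Txnrd1, and Gpx4 at 2966 and 3783. Interferon and antiviral genes had more in 21 of 24 (median 395.5), with means of 1154 and 747 bases, against 969.5 and 641 in untreated knockdown and control mice.

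Within the interferon list, Isg20, an antiviral exonuclease, was covered over 1117 bases in the knockdown list and 0 in the control list, against 789 and 199 in untreated knockdown and control mice. Bst2, which tethers virus particles, had 1614 and 685, against 878 and 293. Irf7, a driver of interferon genes, had 1278 and 516, against 906 and 384. Isg20, Ifit1 and Oas1a each gained an end peak, and those of Ifit1 and Oas1a were in no other H3K27ac list.

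Cell type markers were used to check the tissue label. Markers of excitatory neurons such as Slc17a7, Camk2a and Neurod2, and Prox1 of dentate granule cells, were covered in all 4 H3K27ac lists. Of the 23 genes of other tissues 8 were covered, among them Nphs1 and Sftpc, while Alb and Cd3e were at 0 in both ethanol lists. Of the microglia and macrophage markers 9 of 22 were covered, among them Csf1r, while Cx3cr1, Tmem119, C1qa and Trem2 were at 0 in both ethanol lists. Of the endothelial and mural markers 12 of 20 were covered, among them Erg, with Pecam1, Cdh5 and Tie1 at 0. Of the inhibitory neuron markers 12 of 19 were covered, among them Gad1, with Slc32a1, Sst and Vip at 0. Of all 21887 protein-coding genes 14747 were covered in either list.

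Most astrocyte and excitatory neuron markers were more covered in the knockdown list, as were 82.7% of all genes. With lists of equal covered bases, 12 of 16 astrocyte and 14 of 19 excitatory neuron markers were more covered, beside 64.2% of all genes. Astrocyte markers had more bases in 18 of 18 covered genes, with a median difference of 611 and means of 2006 and 1292, against 1564 and 1492 in untreated knockdown and control mice. Sox9, a glial transcription factor, had 2505 and 1066 bases, against 1372 and 1541. S100b, a calcium-binding protein, had 1787 and 384, against 1090 and 805. Aldoc, a glycolytic aldolase, had 2795 and 1507, against 2819 and 2527, and Aldh1l1 and Acsbg1 gained end peaks. Excitatory neuron markers had more in 18 of 19, with a median difference of 611 and means of 2582 and 1789, against 2366 and 2132. Neurod1, a neurogenic factor, had 3057 and 1109, against 2608 and 2462, and Nrgn, a calmodulin-binding postsynaptic protein, had 4659 and 2838, against 4554 and 4066. Neurog2, a neurogenic factor of progenitors, gained an end peak. Of the 4 H3K27ac lists, the control ethanol list covered the fewest bases in 10 of 18 astrocyte genes (55.6%) and 14 of 19 excitatory neuron genes (73.7%), beside 41.0% of all covered genes.

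Oligodendrocyte lineage markers were split evenly. Of 20 covered genes, 10 had more bases in the knockdown list and 10 had fewer, beside 82.7% and 17.2% of all genes. The median difference was -5 bases, and the means were 1355 in the knockdown and 1573 in the control list, against 1199 and 1268 in untreated knockdown and control mice. Sox10, the transcription factor that specifies the lineage, had 2085 and 4209 bases, against 2336 and 3059. Mobp, a myelin structural protein, had 422 and 1635, against 678 and 1000. Mag, a myelin-associated glycoprotein, had 1875 and 2701, against 2112 and 1962. Nkx6-2, a homeobox factor of the lineage, had 1754 and 2571, against 1588 and 1764, and Ermn, a late myelin protein, had 230 and 941, against 396 and 195. In these 5 genes the control ethanol list was the highest of the 4.

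Over the whole oligodendrocyte list, 9 of 20 genes (45.0%) had the ethanol control list as the highest of the 4 H3K27ac lists, against 9.53% of all covered genes. The ethanol knockdown list was the highest in as many, 9 of 20 (45.0%), against 57.8% of all covered genes. Other members had more bases in the knockdown list. Opalin, a myelin protein, gained an end peak over 278 bases where the control list had 0. Mbp had 2126 and 1736 bases, Cnp 2528 and 2217, and Cspg4, a marker of precursor cells, 1317 and 909. Olig2 was nearly level, at 2401 and 2392. Myrf, the myelin regulatory factor, had 1113 and 1620, against 1017 and 1671 in untreated knockdown and control mice, so it was lower in the knockdown in both states. With lists of equal length 7 of 20 genes were more covered and 13 less, and with equal covered bases 1 of 18 was more covered and 17 less, where 76.6% and 64.2% of all genes were more covered.

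**Figure D3:**
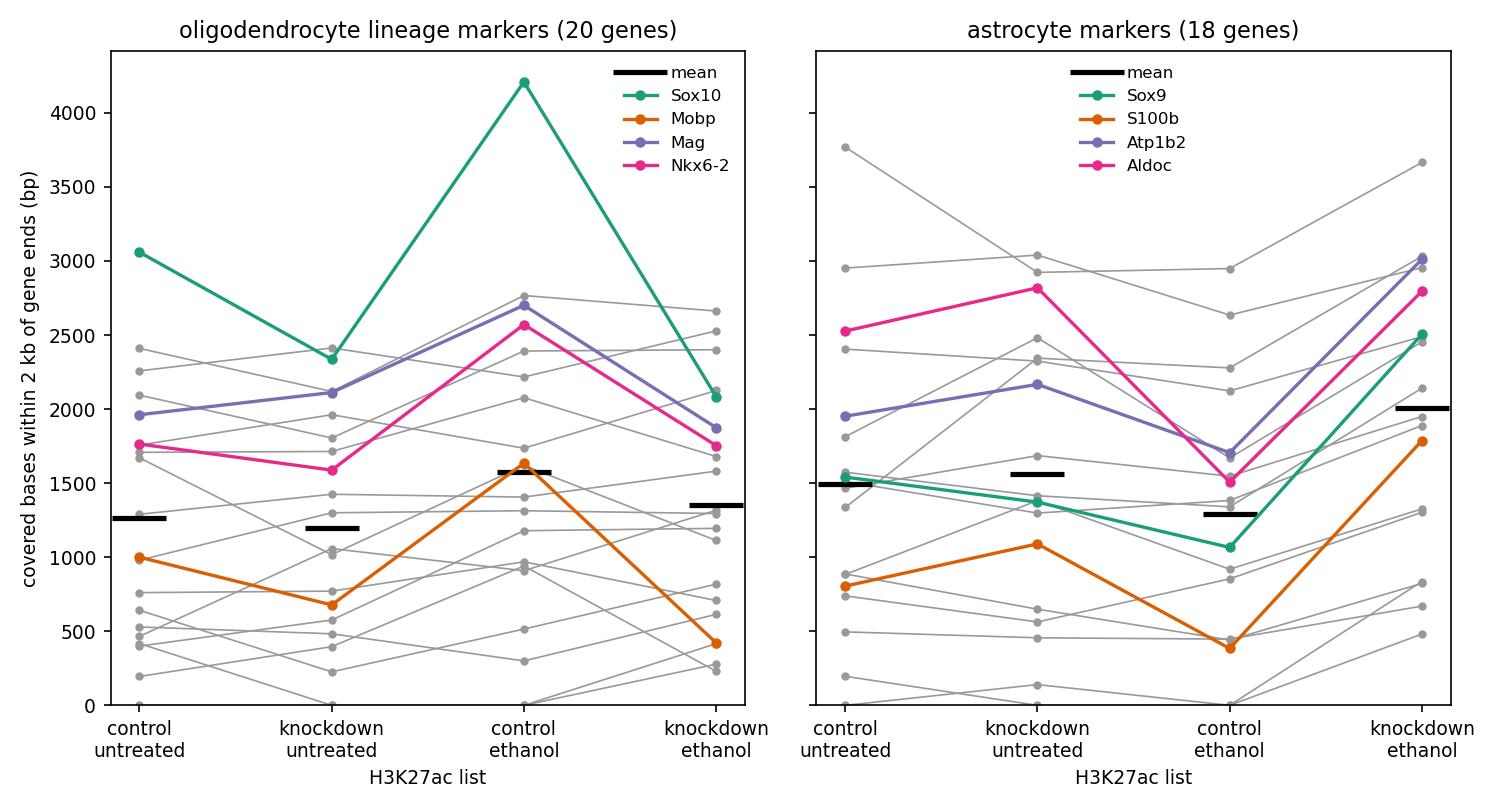
Bases covered by H3K27ac within 2 kb of the gene ends (vertical axis, bp) in the 4 H3K27ac lists (horizontal axis) for oligodendrocyte lineage markers (left) and astrocyte markers (right). Each line is a gene, colours mark the 4 with the largest difference between the ethanol lists, and black bars are means. The oligodendrocyte mean is highest in ethanol control mice (1573 bp) and the astrocyte mean lowest there (1292 bp).

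Inside oligodendrocyte genes, or within 1.0 kb of them, the lost share was above that of all peaks. There 75 of 207 control peaks were lost, which is 36.2% (30.0% to 43.0%), against 18.6% of all control peaks, and 82 of 217 knockdown peaks were gained, which is 37.8% (31.6% to 44.4%), against 48.4%. By place, 22.6% of all control peaks inside genes and 5.91% of those at gene ends were lost. For gained peaks these shares were 54.3% and 18.5%. The next highest lost share of the 24 lists was 29.2% of 24 peaks (14.9% to 49.2%), for microglia markers. The part of placement in these shares was not tested. For astrocyte genes, 15 of 85 control peaks were lost (17.6%) and 79 of 137 knockdown peaks gained (57.7%, 49.3% to 65.6%). In H3K9ac, the mean of every one of the 24 lists was higher in the knockdown ethanol list. The oligodendrocyte list, at 722 and 610 bases, had the smallest of these differences (111.5 bases). Whether the number of oligodendrocytes in the dissected tissue differed between the groups was not tested.

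Inhibitory neuron markers were mixed, with 7 of 12 covered genes more and 5 less covered, beside 82.7% and 17.2% of all genes. Their median difference was 119.5 bases. With lists of equal covered bases 4 of 10 were more covered, beside 64.2% of all genes. Dlx5, a homeobox factor, gained an end peak, and Npy, the neuropeptide Y gene, and Dlx2 lost theirs. At Npy, peaks covered 0 bases in the knockdown list and 304 in the control list, against 387 and 0 in untreated knockdown and control mice, and at Dlx2 they covered 0 and 163, against 0 and 0. The lost start peak of Npy lay at percentile 46.6 of the control list by score. Microglia markers had more bases in 6 of 9 (median 188), or 4 of 9 with equal covered bases, beside 82.7% and 64.2% of all genes. They had a lost end peak at Csf1r, the colony-stimulating factor receptor, over 216 bases. Endothelial and mural markers had more in 11 of 12 (median 180), with a lost end peak at Erg, an ETS factor, over 271 bases. Ependymal, choroid plexus and neighbouring region markers had more in 12 of 14 (median 305.5), with Clic6 gaining an end peak. Housekeeping genes had more in 17 of 19 (median 249), with Actb at 5313 and 4033 bases, and genes of other tissues in 7 of 8 (median 479.5), with an end peak gained at Vil1.

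Gained and lost peaks were then looked up in the 6 lists that the rule did not use. Gained peaks were found in the H3K27ac list of untreated knockdown mice for 35.4% and in that of untreated control mice for 25.6%, whereas kept knockdown peaks were found there for 85.7% and 80.2%. Lost peaks were found for 32.8% and 26.3%, and kept control peaks for 85.4% and 79.4%. More gained peaks were in the untreated knockdown list than in the untreated control list, but so were more lost peaks, and the untreated knockdown list is the longer one, with 101690 and 89935 peaks. Neither untreated list held 54.3% of the gained and 54.8% of the lost peaks. In the untreated mice, the same comparison gave 39192 gained (38.5%) and 23455 lost peaks (26.1%).

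H3K9ac was found far less often at gained and lost sites. The H3K9ac list of ethanol-treated knockdown mice held 6.21% of gained peaks and that of ethanol-treated controls 1.69%, against 46.9% and 35.3% of the kept knockdown peaks. For lost peaks the shares were 5.98% and 3.09%, against 46.5% and 34.3% of the kept control peaks. Each condition has 1 group of 3 input libraries for both marks, so the lists of both marks are not independent. Within H3K9ac itself, knockdown against control with ethanol gave 18339 gained (43.5%) and 3300 lost peaks (10.6%).

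**Figure D4:**
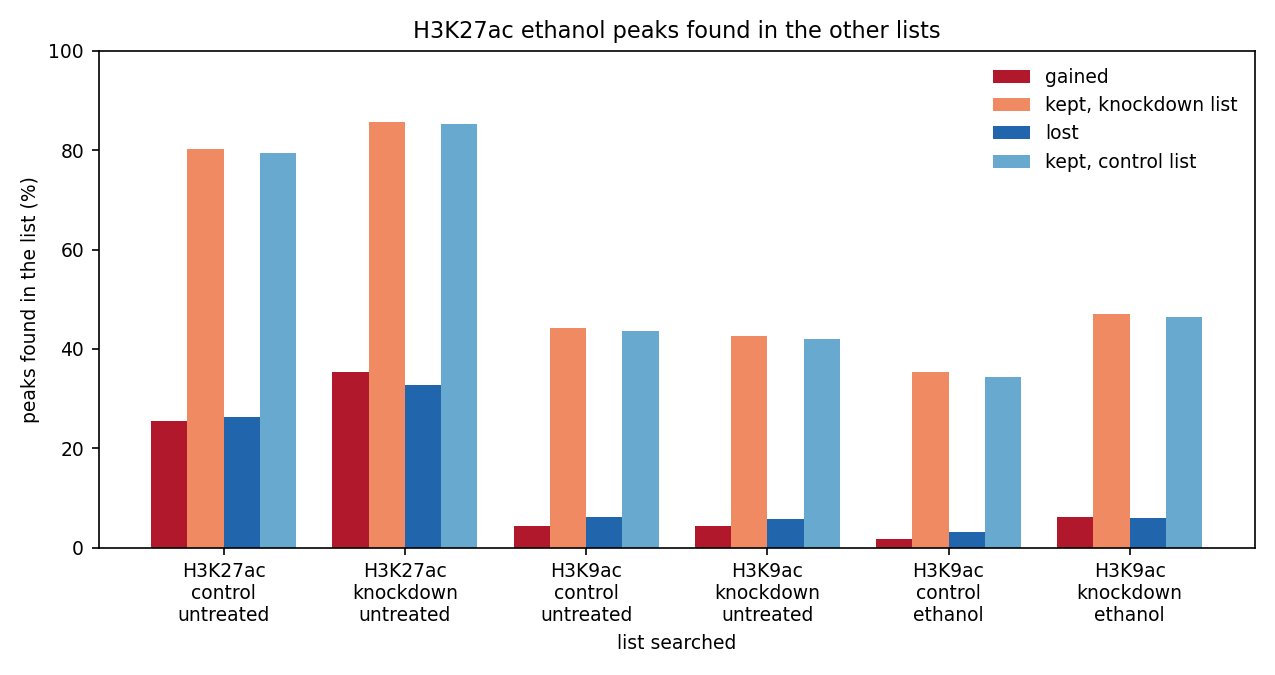
Share of H3K27ac ethanol peaks (vertical axis, percent) found in each of the 6 other lists (horizontal axis) for gained peaks, kept peaks of the knockdown list, lost peaks and kept peaks of the control list. Kept peaks are found for 79.4% to 85.7% in the untreated H3K27ac lists, and gained and lost peaks for 25.6% to 35.4%.

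The letters of promoters were compared over the 21263 RefSeq promoters of 17492 of the 21887 genes. These are 79.9% of the genes, too few for a statement on genes, so the values hold for the listed promoters only. Of the 13072 promoters touched in either list, a peak touched 951 in the knockdown list only (7.28%) and 228 in the control list only (1.74%). The peak had a counterpart beside the promoter for 431 and 127 of these. GC content had a median of 56.7% in gained, 56.0% in lost, 62.7% in kept and 47.0% in untouched promoters, and the median number of CpG dinucleotides was 11, 13, 22 and 3. Gained and lost promoters were alike in this and lay between kept and untouched ones.

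Of the 8 motifs, the CCAAT box, bound by the factor NF-Y, stood out in the lost promoters and was singled out after its values were seen. It matched 58.3% of lost promoters (51.8% to 64.5%), 39.5% of gained ones (36.5% to 42.7%), 36.4% of kept ones and 38.2% of all 21263. Where the lost peak itself had no counterpart, as at Nipal1 and Npy above, it matched 54.5% of 101 promoters (44.8% to 63.8%), and where a counterpart lay beside the promoter 61.4% of 127. For gained promoters these shares were 31.3% of 520 (27.5% to 35.5%) and 49.4% of 431 (44.7% to 54.1%). The lost promoters of the untreated comparison matched for 38.6% (33.8% to 43.7%), and those of H3K9ac with ethanol for 46.1% (40.7% to 51.7%). GC boxes matched 50.6% of gained, 48.7% of lost, 68.2% of kept and 46.2% of all promoters. The E-box matched 20.5% of gained promoters (18.1% to 23.2%), 18.0% of lost ones (13.5% to 23.5%) and 15.6% of all. It matched 20.7% of the gained promoters of the untreated comparison.

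**Figure D5:**
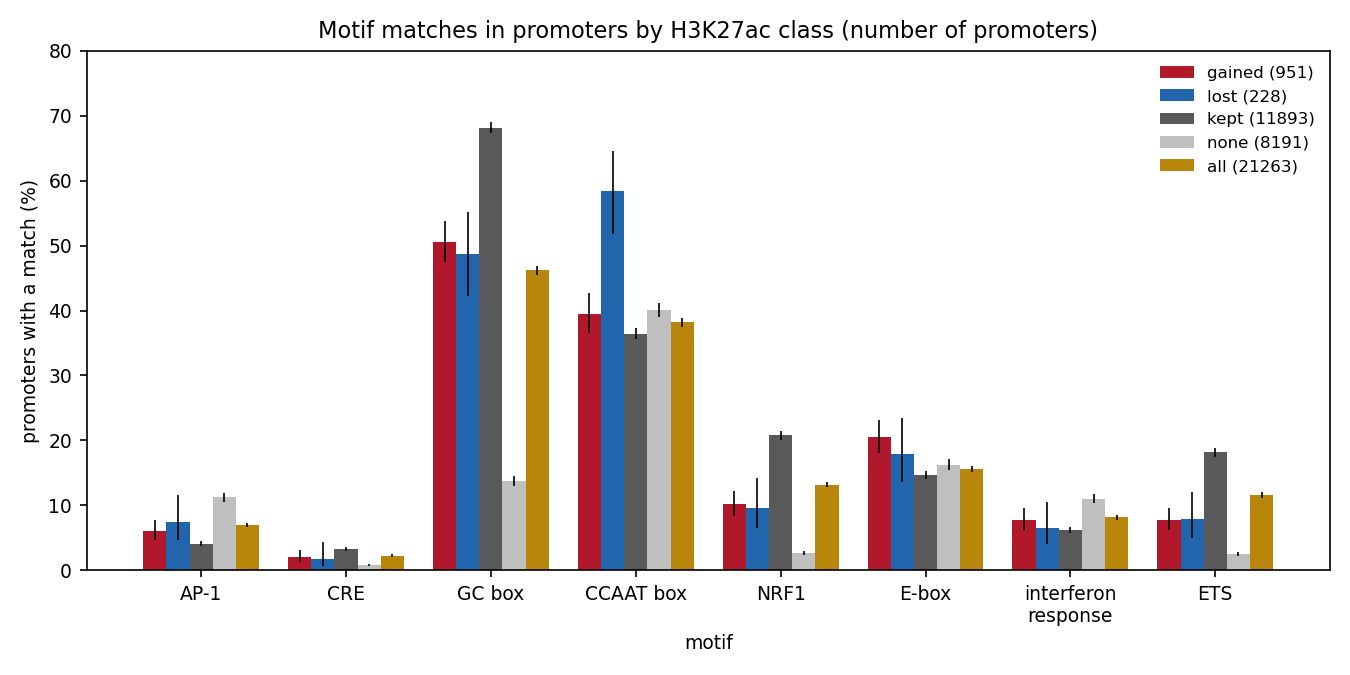
Share of promoters with a match to each of 8 motifs (vertical axis, percent) for promoters gained, lost, kept, untouched ("none") and all, with 95% Wilson intervals and numbers of promoters in the legend. The CCAAT box matches 58.3% of lost promoters and 36.4% to 40.1% of the other classes.

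MicroRNA loci were placed by the same rule. Of 1005 RefSeq hairpins, 313 had a peak within 1.0 kb in either list. Of these, 52 gained one (16.6%) and 15 lost one (4.79%), counting hairpins where the peak itself had no counterpart. Hairpins that share a peak were counted separately, so the peaks are fewer. For end peaks of protein-coding genes these shares were 4.88% and 0.931%. The mature forms of 4 microRNAs of such loci are shown, chosen after their values were seen, with the seed, bases 2 to 8, in capitals.
mmu-miR-195a-5p: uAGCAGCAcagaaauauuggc
mmu-miR-497a-5p: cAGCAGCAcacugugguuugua
mmu-miR-148a-3p: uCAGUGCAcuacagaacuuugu
mmu-miR-139-5p: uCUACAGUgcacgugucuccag
The first pair share the seed AGCAGCA and lie in 1 cluster, on chromosome 11, so they share 1 gained peak, at chr11:70235307-70235451. Peaks covered 145 bases around each of Mir195a and Mir497 in the knockdown list and 0 in the control list, against 513 and 0 in untreated knockdown and control mice. Mir148a had 350 and 0, against 178 and 0. Mir139 lost its peak, with 0 and 133, against 185 and 0. Both gained sites were thus absent from both control lists.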

How the data were processed

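H3K27ac chromatin immunoprecipitation followed by sequencing was compared between ethanol-treated knockdown and control-vector mice, and groups follow the sample labels. For each mark and condition the authors deposited 1 peak list, 8 lists of 6 columns without a header, kept at a false discovery rate of 0.001 per the labels. The score column of the deposited lists never falls below 3.0 and was taken to be a −log10 q-value. Tools named in the submitters' processing notes, without roles, are MACS2, STAR 2.5.2a, bcl2fastq and bedtools, with the build GRCm38 (mm10). How the replicates were pooled, and the depth, are not given in the sources used here.

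Intervals were intersected with Python 3.11.15 and numpy 2.4.6 (at least 1 shared base), after a check on simulated intervals. Genes came from RefSeq (GRCm38.p6). Shares have 95% Wilson intervals, which cover neither the spread between mice nor depth. No test was possible with 1 list per group. Named were the 10 genes with the highest-scoring gained and lost end peaks (genes sharing a peak count as 1), the 6 such peaks away from ends, the 8 genes with most gained and lost peaks inside, list members that gained or lost an end peak or had the largest changes, and Acss2. The members and lists were chosen with earlier results of these data known. Alternatives varied the overlap, score, list length and window. Some genes that this rule names are not reported here.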

Additional observations from a re-analysis of the deposited data

Results flagged for a closer look

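The bromodomain and YEATS readers, proteins that bind acetylated lysine, differed between ethanol-treated and untreated mice in the direction of the mean. With ethanol the mean H3K27ac cover of the 15 covered genes was 270.9 bases higher in the knockdown (2134 against 1863). The means of all covered genes with ethanol were 1690 in the knockdown and 1387 in the control list. With lists of equal covered bases the readers had means of 1907 and 1863. In untreated mice the mean of the readers was 41.7 bases lower in the knockdown, a difference of -41.7 (1811 against 1853). With 1 list per group the difference between these contrasts was not tested. Brd9 had 1920 and 1433 bases with ethanol and 761 and 1532 without, and Yeats2 had 2463 and 1694 with ethanol and 1424 and 1603 without.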

How the results depend on the processing

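Gained and lost peaks numbered 57730 and 16042. They kept within 1.5 times of these counts when 50% of a peak had to be covered and at scores of 5 or more. With peaks within 500 bases counted as shared, lost peaks numbered 7901. Above the median score 11068 were gained and 2324 lost. With lists of equal length 31945 were gained, and with equal covered bases (added after seeing the data) 7468 were gained and 36916 lost. Both of these settings trim the knockdown list only, so their counts of peaks and genes shift toward lost ones by construction. Genes with an end peak gained or lost numbered 733 and 141, 179 and 26 above the median score, 486 and 256 at equal length, and 443 and 91 at listed gene starts (added after seeing the data). Windows of 2 kb and 5 kb kept these counts within 1.5 times.

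At gene ends lay 12.2% of gained and 14.0% of lost peaks with a 2 kb window, and 6.80% of gained peaks at equal length. In untreated knockdown mice 25.1% of gained and 24.5% of lost peaks were found with 50% covered, and 43.5% and 39.6% at equal length, and in untreated controls 15.7% and 18.1%, and 32.2% and 32.1%. In the H3K9ac lists the largest shift was 2.17 percentage points. The share of members more covered crossed 50% for inhibitory neuron markers, at 40.0% with equal length and 40.0% with equal covered bases. With equal covered bases it also crossed for ethanol and acetate metabolism and for glucocorticoid and stress genes, both at 42.9%, and for microglia markers, at 44.4%. Of all genes, 76.6% were more covered with equal length and 64.2% with equal covered bases. Of the 72 gene list values, 50 stayed within the interval of the main value and 17 moved beyond it without being counted as crossing. The oligodendrocyte list started at exactly 50%, so it could not be counted as crossing. Its share was 45.5% with a 5 kb window, 35.0% at equal length and 5.56% with equal covered bases.

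No paired analysis was possible because each group has 1 pooled list, with no value per replicate. Leaving out single replicates was not run for the same reason. Depth is unknown, which limits what a site missing from a list shows.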
